A study of Mus musculus with 36 samples.

Results

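Dbp, Tef, Hlf, Nfil3 and Usp2 were followed in the livers of 36 mice. These 5 genes, of 24421 in the deposited count tables, were chosen by name as outputs of the circadian clock, and each had a value in every library. The members and the gene lists below were chosen with earlier results of these data known. Their counts beside the shares over all genes are therefore a description, not a test. All 36 were male C57BL/6J mice with steatohepatitis after 12 weeks on the CDAHFD, which lacks choline and is rich in fat. During 2 weeks of HFD, Fc (4.3 mg/kg, 10 mice) or Fc(mML1)B3 (5 mg/kg, 10 mice) was then given once a week. During 10 days of standard diet, 9 other mice were given Fc and 7 were given Fc(mML1)B3, with doses unchanged and injections on days 1, 4 and 7. Fc(mML1)B3 is an antibody Fc fragment that carries a Met-binding macrocyclic peptide and acts as a mimetic of hepatocyte growth factor, and Fc without the peptide was the control in both experiments. Diet, duration and dosing changed together, so the diet and the experiment cannot be told apart. The sources used here do not give the hour at which the livers were taken, so whether the groups were taken at the same hour is not known.

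The circadian clock of the liver is a loop in which the activators Arntl and Clock drive the Per, Cry and Nr1d genes, whose products then repress the activators. Dbp, Tef and Hlf are the PAR bZIP transcription factors, which carry the rhythm of the loop to output genes by activating them through D-box elements. Nfil3 (E4BP4) binds the same elements and represses, and its own gene is repressed by the Nr1d proteins. Usp2 encodes a deubiquitinating enzyme whose transcript is rhythmic in liver. All 5 transcripts are known to rise and fall over the day.

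Total counts were 14949035 to 28466853 per library, and the members were measured at depths from 48 reads for Dbp to 6559 reads for Tef in a single library. All 5 members passed the low-count filter in every comparison. The tissue label was checked with hepatocyte genes (Alb, Apoa1, Ttr, Cps1, Cyp2e1 and Hnf4a), whose summed level was 78396 to 150768 CPM (counts scaled to the TMM library size) over the 4 groups, while 6 genes of brain, muscle and pancreas summed to at most 1.49 CPM. No 2 libraries of a group were duplicates (147 pairs, lowest chi-square per degree of freedom 6.06). In whole liver, fewer cells of a type and less RNA per cell cannot be told apart.

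The members lie on 5 chromosomes of mm10. Dbp spans chr7:45705247-45710203 on the plus strand, Tef chr15:81802673-81826863 on the plus strand, Hlf chr11:90336535-90390917 on the minus strand, Nfil3 chr13:52967209-52981039 on the minus strand and Usp2 chr9:44067021-44095627 on the plus strand. Of the exonic bases of Dbp, 539 (32.1%) are shared with Sphk2, a sphingosine kinase gene on the opposite strand. Reads on the bases shared by both genes were counted for neither, so the level of Dbp per length is a low estimate.

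Short stretches around clock-related motifs are shown for the members that hold one, as sequence context for the values. Whether a motif bears on a member's level was not tested. The 250 bases before 6 RefSeq starts of the 5 members (GRCm38.p6) were searched on both strands for the E-box CACGTG that Arntl and Clock bind, its variant CACGTT, the D-box (TTATGTAA or TTACGTAA), the core of the element bound by Nr1d proteins (TAGGTCA or TGGGTCA), and the cAMP-response element TGACGTCA. Capitals mark the match, and each stretch reads 5′ to 3′ on the strand of the gene.
Tef, first start, chr15:81802534-81802563, plus strand, E-box: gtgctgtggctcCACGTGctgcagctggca
Tef, second start, chr15:81811264-81811293, plus strand, E-box: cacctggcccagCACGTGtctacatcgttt
Nfil3, chr13:52981040-52981069, minus strand, Nr1d core, reverse complement: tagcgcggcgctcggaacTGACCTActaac
Hlf, chr11:90390918-90390947, minus strand, cAMP-response element: atcggcgcgcggtgcgggcccTGACGTCAc
The windows of both Tef starts held an E-box, whose first bases lie 127 and 138 bases before the start. The window of Nfil3 held the Nr1d core 12 to 6 bases before the start, and that of Hlf a cAMP-response element 9 to 2 bases before it. The window of Dbp held none of these letters. For Usp2 the 1 window searched lies before an internal start at 44084920 and held none of them either, while the bases before the 5′ end of the gene at 44067021 were not searched. Starts differ between annotations. GENCODE vM21 places a start 34 bases before the RefSeq start of Nfil3, 252 bases before the first of Tef and 159 bases before that of Dbp, so the Nfil3 match and the first Tef match lie after a GENCODE start. The second Tef start is in both, with another GENCODE start 368 bases before it. The bases before the GENCODE starts were not searched. Among all 32851 promoter windows, which may also reach past the start, 6.02% held the E-box, 3.85% its variant, 0.931% a D-box, 5.38% the Nr1d core and 1.55% the cAMP-response element.

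Under the HFD, Fc(mML1)B3 mice had less Dbp and Tef and more Nfil3 than Fc mice, with no overlap between the groups, while Hlf and Usp2 did not pass the test. Dbp, a PAR bZIP factor with a steep daily rhythm in liver, ranged from 73.0 to 133.4 CPM (median 97.7) in the Fc mice and from 3.14 to 24.8 CPM (median 6.33) in the treated mice. Dbp fell by 3.31 ± 0.33 (SE) on the log2 scale, about 9.90-fold (edgeR quasi-likelihood test, adjusted p = 5.38e-07). The ranges of the groups did not overlap for Dbp, Tef and Nfil3, as for 0.917% of all 13299 genes tested in this comparison.

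Tef, which is expressed in many tissues, ranged from 150.0 to 214 CPM (median 176) in the Fc mice and from 79.3 to 140 CPM (median 99.8) in the Fc(mML1)B3 mice. It fell by 0.76 ± 0.09 (SE) on the log2 scale (adjusted p = 9.36e-06). Nfil3 ranged from 6.85 to 13.7 CPM (median 11.4) in the Fc mice and from 24.7 to 53.3 CPM (median 39.2) in the Fc(mML1)B3 mice. It rose by 1.87 ± 0.15 (SE) on the log2 scale, 3.65-fold (adjusted p = 3.79e-08). All 10 treated mice lay above every Fc mouse for this repressor. Hlf ranged from 42.5 to 72.5 CPM in the Fc mice and from 47.3 to 75.7 CPM in the Fc(mML1)B3 mice, with a log2 fold change of 0.06 ± 0.10 (SE, adjusted p = 0.705, interval -0.13 to 0.25). Usp2 ranged from 59.0 to 103 CPM (median 84.0) in the Fc mice and from 21.4 to 90.1 CPM (median 57.3) in the Fc(mML1)B3 mice, and 5 of the 10 treated mice lay below every Fc mouse. Its log2 fold change was -0.50 ± 0.22 (SE, adjusted p = 0.121). Over all genes tested, 8.14% rose and 6.68% fell, and among the members 1 rose and 2 fell.

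**Figure D1:**
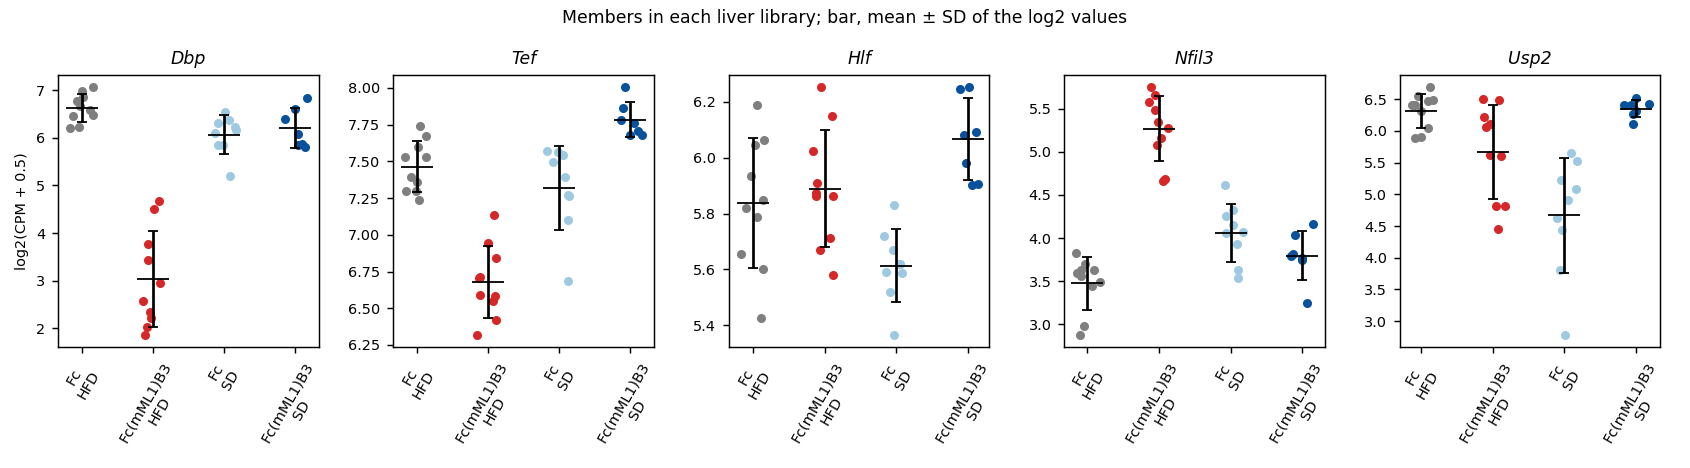
Level of each member in every library as log2(CPM + 0.5), by group, with the mean and SD of the log2 values as a black bar. Under the HFD the Dbp and Tef points of the Fc(mML1)B3 mice lie below and the Nfil3 points above every Fc mouse, and the Usp2 points of the Fc mice on the standard diet are the lowest of the 4 groups on average.

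The library numbers in the headers of the count tables fall into several series, and under the HFD each series held only 1 of the 2 proteins, so series and protein cannot be told apart there. The Fc(mML1)B3 mice came from 2 series, of 4 and 6 mice. Against all Fc mice, the log2 fold change of Dbp was -2.59 with the first series alone (adjusted p = 7.77e-05) and -4.12 with the second (adjusted p = 3.87e-08). That of Tef was -0.53 (adjusted p = 0.0103) and -0.93 (adjusted p = 2.42e-06), and that of Nfil3 was 1.71 (adjusted p = 1.71e-05) and 1.97 (adjusted p = 2.41e-07). Usp2 was at 68.3 to 90.1 CPM in the first series and at 21.4 to 65.9 CPM in the second, which did not overlap. Its log2 fold change was 0.033 with the first (adjusted p = 0.897) and -1.002 with the second (adjusted p = 0.0030).

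Under the standard diet, Fc(mML1)B3 mice had more Usp2, Hlf and Tef than Fc mice, and Dbp and Nfil3 did not pass the test. Usp2 ranged from 6.38 to 49.8 CPM (median 29.6) in the Fc mice and from 68.9 to 91.5 CPM (median 84.3) in the Fc(mML1)B3 mice. It rose by 1.49 ± 0.26 (SE) on the log2 scale, 2.80-fold (adjusted p = 5.29e-04). Hlf, the hepatic leukemia factor, ranged from 40.7 to 56.4 CPM (median 48.7) in the Fc mice and from 59.4 to 75.8 CPM (median 67.2) in the Fc(mML1)B3 mice. It rose by 0.45 ± 0.07 (SE) on the log2 scale (adjusted p = 7.83e-05). Tef ranged from 102 to 189 CPM (median 167) in the Fc mice and from 204 to 257 CPM (median 216) in the Fc(mML1)B3 mice, and rose by 0.44 ± 0.10 (SE) on the log2 scale (adjusted p = 0.00419). All 7 treated mice lay above every Fc mouse for these 3 genes, and the groups did not overlap for 2.93% of the 13570 genes tested in this comparison. In all, 8.56% of the genes rose and 7.55% fell.

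Dbp ranged from 35.98 to 92.9 CPM (median 71.3) in the Fc mice and from 55.2 to 113 CPM (median 66.9) in the Fc(mML1)B3 mice on the standard diet. Its log2 fold change was 0.14 ± 0.17 (SE, adjusted p = 0.62, interval -0.20 to 0.47). Nfil3 ranged from 11.1 to 24.0 CPM in the Fc mice and from 8.99 to 17.4 CPM in the Fc(mML1)B3 mice, with a log2 fold change of -0.29 ± 0.14 (SE, adjusted p = 0.182). One series of library numbers held both proteins, with 4 Fc and all 7 Fc(mML1)B3 mice. Within that series the log2 fold change was 1.01 for Usp2 (adjusted p = 2.16e-04), 0.45 for Hlf (adjusted p = 0.00257), 0.34 for Tef (adjusted p = 0.0132), -0.08 for Nfil3 (adjusted p = 0.83) and -0.09 for Dbp (adjusted p = 0.802). The Fc mice of this series had 29.6 to 49.8 CPM of Usp2 against 6.38 to 33.5 CPM in the other 5 Fc mice.

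For all 5 members, the response to Fc(mML1)B3 was not the same in the 2 experiments (interaction test over 36 libraries). The log2 fold change under the standard diet minus that under the HFD was 3.46 ± 0.39 (SE) for Dbp (adjusted p = 4.86e-08), 1.22 ± 0.14 for Tef (adjusted p = 8.74e-08) and 2.01 ± 0.36 for Usp2 (adjusted p = 1.72e-04). It was -2.15 ± 0.22 for Nfil3 (adjusted p = 6.53e-09) and 0.41 ± 0.12 for Hlf (adjusted p = 0.0308). Of all 14105 genes tested, 4.66% had a higher and 4.4% a lower effect on the standard diet. The Hlf call was lost when any of 12 libraries was left out (Fc mice 3 and 5 and Fc(mML1)B3 mice 8 and 10 of the HFD, Fc mice 1, 6, 8 and 9 and Fc(mML1)B3 mice 4, 5, 6 and 7 of the standard diet), with differences of 0.36 to 0.40 and adjusted p-values of 0.0505 to 0.0849. The call was also lost without the low-count filter (0.40, adjusted p = 0.0571) and with the replicate block (0.38, adjusted p = 0.0911).

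**Figure D2:**
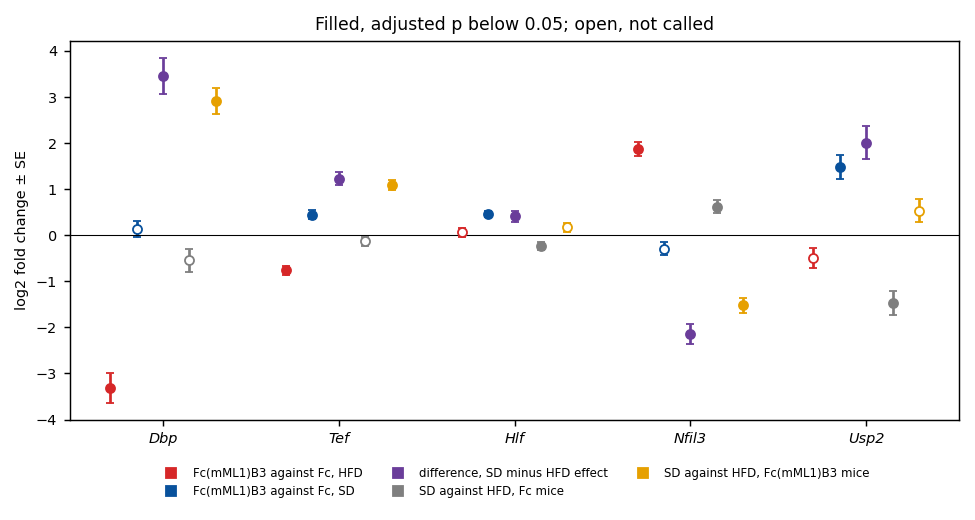
Log2 fold change and its SE (bars) for each member in the comparisons of treatment within a diet, of diet within a treatment and of the treatment effect between the diets. Filled points passed an adjusted p of 0.05 and open points did not. Dbp, Tef and Nfil3 changed with Fc(mML1)B3 under the HFD, and Usp2, Hlf and Tef under the standard diet.

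Between the experiments, the Fc mice differed mostly in Usp2 and Nfil3. Usp2 was 59.0 to 103 CPM under the HFD and 6.38 to 49.8 CPM on the standard diet, with no overlap, and was lower by 1.47 ± 0.25 (SE) on the standard diet (log2 fold change -1.47, adjusted p = 1.10e-05). Nfil3 was higher by 0.62 ± 0.15 (SE, adjusted p = 7.46e-04) on the log2 scale, and Hlf fell by 0.24 ± 0.09 (SE, adjusted p = 0.0202). The Hlf call was lost without Fc mouse 3 or 5 of the HFD or Fc mouse 1 of the standard diet, with adjusted p-values of 0.0508 to 0.0712. Dbp and Tef had log2 fold changes of -0.55 ± 0.26 (adjusted p = 0.0771) and -0.13 ± 0.10 (adjusted p = 0.264). In this contrast 23.3% of all genes were higher and 24.6% lower on the standard diet, and 9.42% did not overlap, so that the members' calls stand among many.

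In the Fc(mML1)B3 mice, Dbp and Tef were higher and Nfil3 was lower on the standard diet than under the HFD, each with no overlap. The log2 fold change was 2.92 ± 0.29 (SE, adjusted p = 4.97e-10) for Dbp, 1.09 ± 0.10 (adjusted p = 1.67e-10) for Tef and -1.52 ± 0.16 (adjusted p = 1.86e-09) for Nfil3. For Usp2 it was 0.54 ± 0.26 (adjusted p = 0.0984) and for Hlf 0.17 ± 0.09 (adjusted p = 0.135). The Hlf value passed without Fc(mML1)B3 mouse 7 of the HFD (adjusted p = 0.0499). Here 20.7% of all genes were higher and 17.9% lower on the standard diet, and 9.9% did not overlap.

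Per length, as CPM per kilobase of exon, Dbp and Tef were the most abundant members in 3 of the groups. Dbp led at 59.7 ± 12.2 CPM per kilobase (SD, n = 10) in the Fc mice under the HFD, followed by Tef at 39.8 ± 4.86, Usp2 at 18.3 ± 3.35, Hlf at 10.1 ± 1.62 and Nfil3 at 5.43 ± 1.08. In the Fc(mML1)B3 mice of the HFD the order changed to Tef at 23.2 ± 4.06, Nfil3 at 19.7 ± 4.93, Usp2 at 12.8 ± 5.78, Hlf at 10.5 ± 1.56 and Dbp at 5.88 ± 4.70 (SD, n = 10), so that the repressor exceeded Dbp. All neighbours in that order overlapped, with Tef above Nfil3 in 6 of the 10 mice.
In the Fc mice on the standard diet, Dbp stood at 40.9 ± 10.1 and Tef at 36.3 ± 6.49, above Hlf at 8.59 ± 0.77, Nfil3 at 8.34 ± 1.98 and Usp2 at 6.60 ± 3.24 CPM per kilobase (SD, n = 9). The last 3 overlapped. In the Fc(mML1)B3 mice on the standard diet, Tef at 49.4 ± 4.22 and Dbp at 45.2 ± 13.5 overlapped, and Usp2 at 18.6 ± 1.67, Hlf at 11.8 ± 1.21 and Nfil3 at 6.83 ± 1.32 (SD, n = 7) each lay apart from their neighbours.
Over the exonic bases that Dbp does not share with Sphk2, an alternative added after the data were seen, Dbp was at 88.0 ± 17.97 and 8.67 ± 6.92 CPM per kilobase in the Fc and Fc(mML1)B3 mice of the HFD (SD, n = 10 each), and at 60.3 ± 14.8 (n = 9) and 66.6 ± 19.9 (n = 7) on the standard diet. The order of Dbp and Tef then turned in the Fc(mML1)B3 mice on the standard diet, with Dbp above Tef in all 7, while Dbp remained the lowest of the 5 on average in the Fc(mML1)B3 mice of the HFD.

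The transcript of 1 activator, Dbp, was set against that of the repressor Nfil3 as a log2 ratio per length in each mouse. The activators Tef and Hlf are not part of this ratio. In the Fc(mML1)B3 mice of the HFD they stood at 23.2 and 10.5 CPM per kilobase on average, against 19.7 for Nfil3. The ratio of Dbp to Nfil3 was 2.75 to 4.44 (median 3.33) in the Fc mice under the HFD and -3.48 to 0.25 (median -2.17) in the Fc(mML1)B3 mice, of which 1 had a ratio above 0. On the standard diet it was 0.82 to 3.16 (median 2.26) in the Fc mice and 2.05 to 3.61 (median 2.53) in the Fc(mML1)B3 mice, and those ranges overlapped. On the unshared length of Dbp the medians were 3.89, -1.61, 2.82 and 3.09 in the same order, and 1 of the 10 Fc(mML1)B3 mice of the HFD was again above 0.

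**Figure D3:**
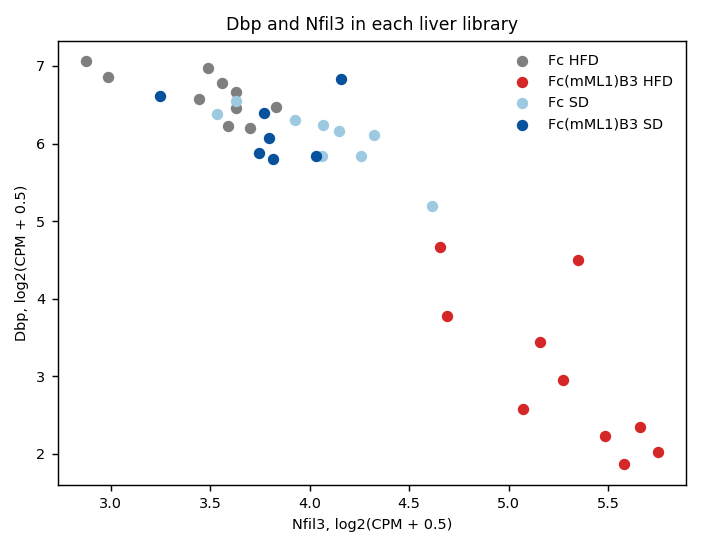
Dbp against Nfil3 in each library, both as log2(CPM + 0.5), coloured by group. The 10 Fc(mML1)B3 mice of the HFD lie at low Dbp and high Nfil3, apart from the other 3 groups.

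Members also varied between mice of the same group. The SD of log2(CPM + 0.5) of Dbp was 1.01 in the Fc(mML1)B3 mice of the HFD, larger than in 99.8% of the 14105 genes kept over all libraries, and 0.30 in the Fc mice of the HFD (62.8%). On the standard diet it was 0.40 in the Fc mice (93.9%) and 0.41 in the Fc(mML1)B3 mice (94.3%). The Fc(mML1)B3 mice of the HFD pool 2 library series, with 7.22 to 24.8 CPM of Dbp (mean 16.2) in the series of 4 and 3.14 to 13.2 CPM (mean 5.68) in the series of 6. For Usp2 it was 0.91 in the Fc mice on the standard diet (99.8%), 0.74 in the Fc(mML1)B3 mice of the HFD (98.4%) and 0.13 in the Fc(mML1)B3 mice on the standard diet (40.5%). Usp2 differed 7.81-fold between the lowest and the highest Fc mouse on the standard diet, and 3.71-fold without the lowest, Fc mouse 1. The Fc mice came from 2 library series and the Fc(mML1)B3 mice on this diet from 1 of them, in which Usp2 differed 1.69-fold among the 4 Fc mice and 1.33-fold among the 7 Fc(mML1)B3 mice. It differed 5.25-fold among the 5 Fc mice of the other series (SD 0.89), with Fc mouse 1 at 6.38 CPM and the rest at 13.4 to 33.5 CPM. A spread was thus also present within that series, in part through 1 mouse. Among the Fc(mML1)B3 mice of the HFD, Usp2 differed 1.32-fold in the series of 4 (SD 0.20) and 3.08-fold in the series of 6 (SD 0.62). Nfil3 had SDs of 0.29 to 0.38, larger than those of 65.2% to 87.1% of genes, and in the Fc mice under the HFD its SD of 0.31 was the highest of the 5 members. Hlf had SDs of 0.13 to 0.23, larger than those of 33.02% to 47.7% of genes.

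Within groups, Dbp, Tef and Usp2 varied together in 2 of the groups, and the pairs of Nfil3 with Dbp and with Usp2 were negative in both, passing after adjustment in the Fc mice on the standard diet. These 2 groups each pool 2 library series. The Fc mice under the HFD and the Fc(mML1)B3 mice on the standard diet came from 1 series each. There r was -0.55 and -0.60 for Dbp with Usp2 and -0.36 and -0.74 for Tef with Usp2, and none passed. Of 40 tests (10 pairs in 4 groups, permutation p-values adjusted over the 40, exact for groups under 10 mice), 9 passed. In the Fc mice on the standard diet, Pearson's r was 0.96 for Dbp with Usp2 (Spearman's rho 0.95, exact permutation p = 9.65e-05, adjusted p = 0.00386, n = 9), 0.94 for Dbp with Tef (rho 0.85, exact permutation p = 9.12e-04, adjusted p = 0.0126), 0.93 for Tef with Usp2 (rho 0.85, exact permutation p = 9.42e-04, adjusted p = 0.0126), -0.85 for Dbp with Nfil3 (rho -0.80, exact permutation p = 0.00275, adjusted p = 0.0183) and -0.79 for Nfil3 with Usp2 (rho -0.73, exact permutation p = 0.0102, adjusted p = 0.0453). Without the 2 mice farthest from the median of the first gene these were 0.87, 0.82, 0.64, -0.64 and -0.53. The rho of the last 2 pairs did not pass after adjustment (0.069 and 0.124). The library series in this group held 5 and 4 mice, fewer than the 6 set as the least for a correlation, so these relations were not tested within a series.

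In the Fc(mML1)B3 mice of the HFD, r was 0.88 for Dbp with Usp2 (rho 0.90, permutation p = 0.00152, adjusted p = 0.0152, n = 10), 0.84 for Tef with Usp2 (rho 0.85, permutation p = 0.00204, adjusted p = 0.0163) and 0.77 for Dbp with Tef (rho 0.65, permutation p = 0.00962, adjusted p = 0.0453). Without the 2 mice farthest from the median these were 0.84, 0.76 and 0.42, so the last rested on those mice. Its rho also did not pass after adjustment (0.141). Within the series of 6 mice, r was 0.79 for Dbp with Usp2 (exact permutation p = 0.0361, adjusted p = 0.12), 0.68 for Tef with Usp2 (exact permutation p = 0.16) and 0.22 for Dbp with Tef (exact permutation p = 0.651), and the series of 4 mice was not tested for the same reason. Nfil3 with Usp2 had an r of -0.76 over all 10 mice (rho -0.78, permutation p = 0.0131, adjusted p = 0.0524) and -0.90 within the series of 6 (exact permutation p = 0.00139, adjusted p = 0.0139). Dbp with Nfil3 had an r of -0.74 over all 10 mice (rho -0.78, permutation p = 0.0164, adjusted p = 0.0547) and -0.91 within the series of 6 (rho -0.71, exact permutation p = 0.0167, adjusted p = 0.0835). Whether these relations differ between the groups was not tested.
In the Fc(mML1)B3 mice on the standard diet, 1 pair passed, Dbp with Tef (r = 0.86, rho 0.71, exact permutation p = 0.00833, adjusted p = 0.0453, n = 7), and it was 0.37 without the 2 mice farthest from the median, while its rho did not pass after adjustment (0.207). In the Fc mice under the HFD, none of the 10 pairs passed (2 had an unadjusted permutation p below 0.05), and r ranged from -0.70 for Dbp with Nfil3 to 0.68 for Dbp with Tef.

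**Figure D4:**
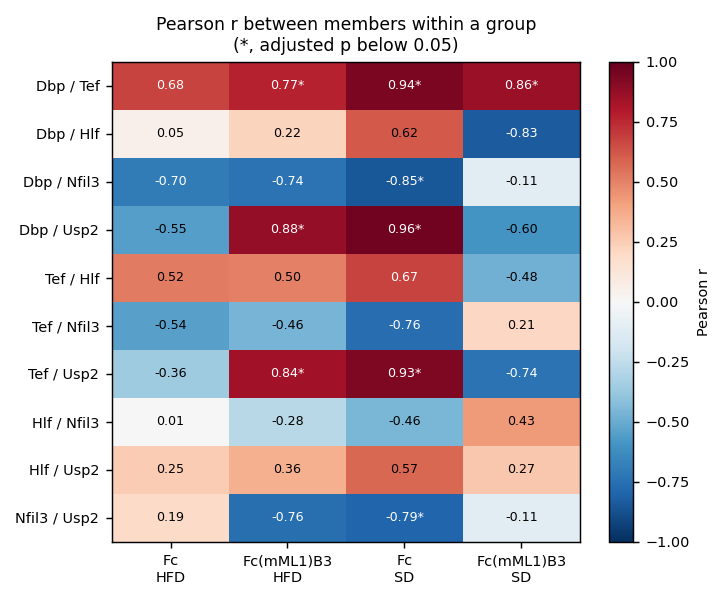
Pearson's r between each pair of members over the mice of a group, with an asterisk where the adjusted permutation p was below 0.05. Dbp with Tef was positive in all 4 groups, from 0.68 to 0.94, and Dbp with Usp2 ranged from -0.60 to 0.96.

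The genes most like each member were searched among 14100 other genes, by Pearson's r of log2 CPM over 36 libraries after the group means were subtracted. These values share libraries and depth and are given as a description. For Dbp they were Nr1d2 (r = 0.87), Per3 (0.86) and Anxa7 (0.77), with Arntl lowest (-0.86). For Tef they were Klf13 (0.79), Per3 (0.76) and Erf (0.75), with Hnrnpc lowest (-0.71). For Hlf they were Ppm1a (0.83), Xylb (0.73) and Sord (0.72), with Grb10 lowest (-0.80). For Nfil3 they were Arntl (0.68), Clpx (0.68) and Abtb2 (0.63), with Per3 lowest (-0.72), and for Usp2 Klf13 (0.86), Ciart (0.85) and Anxa7 (0.79), with Clpx lowest (-0.73). Not all of these held in each group. The r of Anxa7 with Dbp was 0.96 in the Fc(mML1)B3 mice of the HFD and 0.97 in the Fc mice on the standard diet, but 0.038 and -0.15 in the other two groups. The former groups each pool 2 library series and the latter came from 1 series each. Means of the series were not subtracted, and the part of the series in these values was not tested. In the Fc(mML1)B3 mice on the standard diet, Klf13 with Tef had an r of -0.40 and Clpx with Usp2 an r of 0.17. Nr1d2 and Per3 are clock repressors and Arntl is the clock activator, and none of the genes nearest to Hlf is on the core clock list.

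The core clock genes moved in both directions in both experiments. Under the HFD, 5 of 17 tested genes rose and 6 fell (median log2 fold change -0.12 against -0.0099 over all genes), beside 8.14% and 6.68% of all genes. Npas2, near the floor with group medians of 0.17 to 0.90 CPM, did not pass the low-count filter under the HFD and was not tested there. Among the tested genes, the largest rises were in Arntl, by 3.98 ± 0.29 (SE, adjusted p = 1.08e-08), and in the repressor Cry1, by 2.22 ± 0.20 (adjusted p = 3.45e-07). The largest falls were in Nr1d1, which encodes REV-ERBα and had a log2 fold change of -2.97 ± 0.31 (adjusted p = 9.67e-07), and in Ciart, at -1.96 ± 0.33 (adjusted p = 2.80e-04). On the standard diet, 6 of 18 rose and 7 fell (median -0.0066 against -0.011), beside 8.56% and 7.55% of all genes, with Per2 up by 1.18 ± 0.13 (adjusted p = 3.70e-06), and Nr1d1 at -1.68 ± 0.15 (adjusted p = 3.60e-07) and Npas2 at -2.12 ± 0.42 (adjusted p = 0.00175). Of the Nr1d genes, Nr1d1 thus fell in both, while Nr1d2 had a log2 fold change of -1.51 ± 0.15 (SE, adjusted p = 7.90e-07) under the HFD and of -0.019 ± 0.099 (adjusted p = 0.927) on the standard diet, with an interaction of 1.51 ± 0.20 (adjusted p = 1.19e-06). Nr1d2 was added here after its values were seen. The difference between the diets was largest for Ciart (3.03 ± 0.44, adjusted p = 7.42e-06), Per3 (1.96 ± 0.19, adjusted p = 4.12e-09), Arntl (-5.02 ± 0.42, adjusted p = 1.48e-10) and Npas2 (-4.47 ± 0.78, adjusted p = 1.14e-04).

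Genes that depend on the PAR bZIP factors in mouse liver include drug-metabolism enzymes and their regulator Nr1i3 (CAR). Under the HFD, 1 of 11 tested genes rose, the acyl-CoA thioesterase Acot1 by 1.07 ± 0.21 (SE, adjusted p = 0.00108), and 2 fell, Acot3 at -1.26 ± 0.23 (adjusted p = 6.95e-04) and the steroid hydroxylase Cyp2a4 at -2.07 ± 0.54 (adjusted p = 0.0120), with a median of -0.22, beside 8.14% higher and 6.68% lower over all genes. The call of Cyp2a4 was lost with limma-voom (-0.94, adjusted p = 0.0860), with the replicate block (-1.01, adjusted p = 0.203) and with each library series alone (-1.89, adjusted p = 0.173, and -2.19, adjusted p = 0.0546, with fewer mice). The value was -1.06 with DESeq2 (adjusted p = 0.0344) and -1.12 without Fc mouse 7 of the HFD (adjusted p = 0.0390). That of Acot3 was -1.01 with the first series alone (adjusted p = 0.0566). On the standard diet, where 8.56% of all genes rose and 7.55% fell, 8 of 12 rose and none fell (median 0.97, also none lower at an unadjusted p below 0.05 or with DESeq2), led by Cyp2b10 at 2.67 ± 0.82 (adjusted p = 0.0312) and Acot3 at 2.28 ± 0.30 (adjusted p = 3.63e-05). Cyp2b10 was near the floor on this diet, with medians of 0.41 CPM in the Fc mice and 0.42 CPM in the Fc(mML1)B3 mice. Its highest Fc(mML1)B3 library was at 14.9 CPM. Without Fc(mML1)B3 mouse 5 of the standard diet Cyp2b10 was at 0.92 (adjusted p = 0.351). The call of Cyp2b10 was also lost without Fc mouse 1, 2 or 9, with values of 2.55 to 2.65 (adjusted p-values of 0.0515 to 0.0532), with limma-voom (1.25, adjusted p = 0.355), with the replicate block (1.65, adjusted p = 0.310) and within the shared series (2.18, adjusted p = 0.277). The interaction passed for 7 of 12, all higher on the standard diet, beside 4.66% higher and 4.4% lower over all genes. Cyp2a4 and Cyp2a5, and the Acot genes, are near copies of each other, and reads with several alignments among them were left out.

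Among 42 tested ubiquitin-specific peptidases other than Usp2, 5 rose and 4 fell under the HFD (median 0.068) and 5 rose and 1 fell on the standard diet (median 0.026). These counts stand beside 8.14% higher and 6.68% lower over all genes under the HFD and 8.56% and 7.55% on the standard diet, and are not read as particular to the family. Named under the HFD were Usp46 (0.35 ± 0.10), Usp15 (0.30 ± 0.07), Usp28 (-0.51 ± 0.12) and Usp18 (-0.91 ± 0.11, adjusted p = 4.97e-06), and on the standard diet Usp46 (0.40 ± 0.10), Usp38 (0.20 ± 0.06) and Usp9x (-0.21 ± 0.06). Of these calls, only that of Usp18 was kept under every alternative setting of the test that adds no limit on the fold change. Of 6 bZIP factors of the C/EBP family, 1 fell under the HFD, Cebpe at -0.80 ± 0.14 (adjusted p = 6.09e-04), while on the standard diet edgeR called 0, with 2 at an unadjusted p below 0.05, and DESeq2 called 1. The family's medians were -0.00082 and 0.067.

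Markers of other cells were examined in the same tests. Under the HFD, all 3 tested neutrophil genes fell with Fc(mML1)B3, and the summed level over the 5 listed genes with a row in the count tables was 4.32 to 67.7 CPM (median 10.8) in the Fc mice and 4.18 to 10.8 CPM (median 7.30) in the Fc(mML1)B3 mice. Of 6 lymphocyte genes 1 fell, with 3 lower at an unadjusted p below 0.05 and 2 lower with DESeq2. Of all genes, 8.14% rose and 6.68% fell under the HFD. The macrophage, cholangiocyte, stellate and endothelial lists had 0 of 6 genes called there by edgeR, with 3, 1, 1 and 1 genes at an unadjusted p below 0.05, and DESeq2 called 1 macrophage gene. On the standard diet, 1 of 6 cholangiocyte and 1 of 6 stellate genes fell, beside 8.56% of all genes higher and 7.55% lower. At an unadjusted p below 0.05, 2 cholangiocyte and 4 stellate genes were lower on this diet. For the macrophage, neutrophil, lymphocyte and endothelial lists edgeR called 0 genes, with 1, 0, 1 and 0 at an unadjusted p below 0.05 and 0 with DESeq2. The hepatocyte list had 1 of 6 genes higher under the HFD and 2 of 6 on the standard diet, where its summed level was 107232 to 138325 CPM in the Fc mice and 115891 to 130170 CPM in the Fc(mML1)B3 mice. Between the diets, the genes lower on the standard diet in the Fc mice were 5 of 6 stellate, 5 of 6 lymphocyte, 2 of 6 macrophage and 2 of 6 cholangiocyte genes, beside 24.6% of all genes, and 2 hepatocyte genes and 1 endothelial gene were higher, beside 23.3%. Those lower on the standard diet in the Fc(mML1)B3 mice were 5 stellate, 1 lymphocyte, 1 macrophage and 2 cholangiocyte genes, beside 17.9% of all genes, and 1 hepatocyte, 1 lymphocyte and 1 endothelial gene were higher, beside 20.7%. The part of these cells in the members' values was not tested.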

How the data were processed

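Liver RNA of 36 mice in 4 labelled groups was analysed. Per the file headers and the study's methods, the authors trimmed reads with fastp, removed ribosomal RNA with Bowtie2 2.4.5, aligned to mm10 with STAR 2.7.10a and counted with featureCounts of Subread 2.0.3. The deposited values are raw counts per gene. Each end of a pair was counted as a read, strand was ignored although the kit was directional, and reads with several alignments or on the exons of 2 genes were left out. Coordinates are those of the files.

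The main test was the edgeR 4.0.16 quasi-likelihood test (R 4.3.3) after TMM and filterByExpr. It was adjusted by Benjamini-Hochberg over all genes tested and called at an adjusted p below 0.05. Each diet was fitted alone, and the interaction and diet contrasts over 36 libraries. The SE was derived from the fold change and its F statistic, and intervals of fold changes are normal 95% intervals. CPM used TMM over all libraries. The test was also run on simulated data, and the outcome is not given here. Every library is a separate mouse by its label. The members and lists were chosen with earlier results of these data known. Genes named beside the members were the 3 most and 1 least correlated with each, and the 2 called genes with the largest rise and fall of each list in the comparisons described, except 1 gene that is not reported here. Alternatives were DESeq2 1.42.0, limma-voom (limma 3.58.1) with quality weights, RLE, no filter, the study's thresholds, a replicate block, 1 fit over all 36 libraries, library series, log2(CPM + 4), library totals and each library left out. Another pair of thresholds and the unshared length of Dbp were added after the data were seen.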

Additional observations from a re-analysis of the deposited data

Results flagged for a closer look

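The response of all 5 members to Fc(mML1)B3 differed between the 2 experiments in the interaction test, which compares the standard diet effect with the HFD effect on the log2 scale. The difference was 3.46 for Dbp, 1.22 for Tef, 0.41 for Hlf, -2.15 for Nfil3 and 2.01 for Usp2. The Hlf call was lost in 12 of the 36 fits that left out 1 library, without the low-count filter (adjusted p = 0.0571) and with the replicate block (adjusted p = 0.0911). Diet, dosing and duration changed together between the experiments and cannot be told apart, and whether the groups were taken at the same hour of the day is not known. In no group was the lowest or highest library of a member far enough from the rest to pass Dixon's criterion.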

How the results depend on the processing

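The number of members called stayed within 1.5 times of the reported count under every alternative except those with a limit on fold change on the standard diet, which called 1 of 5 (Usp2) in place of 3, as Hlf and Tef changed by less than 1.5-fold. Under the HFD the study's thresholds called 2 of 5 in place of 3, as Tef changed by 1.70-fold and was lost. The study's thresholds were an adjusted p below 0.1 with a change over 2-fold under the HFD, and 2 pairs on the standard diet, of which 0.05 with 1.5-fold was taken here, also for contrasts the study did not make. The other pair, 0.1 with 2-fold, was added after the data were seen and gave the same member count. The log2 fold change changed sign in 3 cases, each for a value that had not passed: Usp2 under the HFD with the first library series (0.033), Hlf under the HFD with the second series (-0.0049) and Dbp on the standard diet within the shared series (-0.092). Usp2 under the HFD passed with limma-voom (-0.69, adjusted p = 0.0301), as did the diet contrasts of Dbp in Fc mice (-0.60, adjusted p = 0.00607) and of Usp2 in Fc(mML1)B3 mice (0.74, adjusted p = 0.0203).

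Over all genes, counts of calls moved more. Under the HFD, 1972 genes passed, against 178 with the study's thresholds, 3039 with limma-voom, 3133 in 1 fit over all libraries and 705 with the first series. On the standard diet 2186 passed, against 320 with the study's thresholds, 82 at 0.1 with 2-fold, 785 in 1 fit over all libraries and 942 within the shared series. The interaction called 1278, against 593 with the study's thresholds and 2026 with limma-voom. The diet contrasts called 6759 in Fc mice and 5434 in Fc(mML1)B3 mice, and 2230 and 1687 with the study's thresholds. The cause of these shifts was not tested, except that the thresholds add a limit on fold change, with a looser adjusted p where it is 0.1, and the series leave out mice.

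With the replicate number as a replicate block, 1294 genes passed under the HFD and 1296 on the standard diet. The labels' numbers did not pair the mice, since the correlation of deviations was above 0.1 in 2 of 10 pairs under the HFD and in 0 of 7 on the standard diet, and no library correlated best with its own number. The Hlf interaction was 0.38 with the block (adjusted p = 0.0911).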
